A study of Mus musculus with 23 samples.

Results

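Complement is a cascade of proteins that marks cells, debris and synapses for removal. C1q, built from the chains encoded by *C1qa*, *C1qb* and *C1qc*, binds its target and starts the classical pathway, after which C4 and then C3 are cleaved and deposited on the target surface, and the small fragments C3a and C5a are sensed by the receptors encoded by *C3ar1* and *C5ar1*. In the brain the C1q chains and the receptors are made mainly by microglia, the resident immune cells, and the genes for C4 and C3 are also used by astrocytes. The 8 genes described here, *C1qa*, *C1qb*, *C1qc*, *C4a*, *C4b*, *C3*, *C3ar1* and *C5ar1*, were taken by name from a table of read counts for 55335 genes, 34928 of them detected in at least 1 library. *C4a* and *C4b* are close paralogs and were read both apart and as a sum.

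The table came from bulk RNA sequencing of whole hippocampus from female mice, in 23 libraries of 6 groups. The 3xTg mice, a model of Alzheimer's disease labelled B6;129-Psen1tm1MpmTg(APPSwe,tauP301L)1Lfa/Mmjax, carried human mutant APP and human mutant tau transgenes, both driven by the neuronal Thy1.2 element, together with a mutation knocked into the mouse presenilin 1 gene. The WT mice, labelled C57BL/6J x 129S1 and named B6129SF2/J in the study's methods, were a background strain and not littermates, so transgenes and genetic background cannot be told apart in any strain difference. By the study's methods both strains were purchased, and all mice were then bred in-house under the same housing. WT-8M (n = 4) and 3xTg-8M (n = 4) were untreated animals of 8 months. The other 4 groups were 10 months old and had received, through a brain cannula in the lateral ventricle fed by an osmotic pump for 28 days, artificial cerebrospinal fluid with 0.8% DMSO alone (WT-D, n = 4, and 3xTg-D, n = 4) or with 80 µM of ab142089, an inhibitor of stearoyl-CoA desaturase (WT-S, n = 3, and 3xTg-S, n = 4). Stearoyl-CoA desaturase (SCD) makes monounsaturated from saturated fatty acids, and the study asked what its inhibition does in the 3xTg brain. No vehicle-free group of 10 months and no infused group of 8 months was analysed here, so age and infusion cannot be told apart and the 8-month groups were compared only with each other.

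The libraries held 12802267 to 36686413 reads counted in genes at 8 months and 12992547 to 17575615 at 10 months. Levels are given in CPM, the count of a gene divided by all gene counts of its library and multiplied by 1000000. The 8 neuronal marker genes summed to between 6980 and 8190 CPM, and no gene of the neuronal, general astrocyte or general microglial lists was at 0 in any library; of the lists for activated microglia and reactive astrocytes, *Cst7*, *Lcn2* and *Timp1* were at 0 in some. Choroid plexus markers, which come from tissue next to the hippocampus, were uneven: they summed to 370 CPM in 3xTg-8M replicate 4, to 375 in WT-S replicate 2 and to 258 in 3xTg-S replicate 2, against 31.9 in the lowest library. Markers of neutrophils and monocytes summed to 0.218 to 3.17 CPM, and *S100a8*, *Ngp* and *Camp* were at 0 in some library of every group. In bulk tissue, fewer cells of a type and less RNA per cell cannot be told apart.

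The 3 C1q genes lie side by side on the minus strand of chromosome 4 (GRCm38): *C1qb* (ENSMUSG00000036905.8) at 136880129 to 136886187, *C1qc* (ENSMUSG00000036896.5) at 136889804 to 136893065 and *C1qa* (ENSMUSG00000036887.5) at 136895917 to 136898803. Since these genes moved together in the results below, the sequences upstream of their starts are shown where RefSeq gave one (GRCm38.p6, 250 bases before to 50 after the start); 5 of the 8 genes had an entry, *C1qb* and *C1qc* among them. Capitals mark ACTTCCT, a string that contains the GGAA core of sites for ETS-family factors such as PU.1 on its other strand and was picked after the sequences were seen. The *C1qb* window is chr4:136886151-136886450 and the *C1qc* window is chr4:136892865-136893164, both on the minus strand.
C1qb: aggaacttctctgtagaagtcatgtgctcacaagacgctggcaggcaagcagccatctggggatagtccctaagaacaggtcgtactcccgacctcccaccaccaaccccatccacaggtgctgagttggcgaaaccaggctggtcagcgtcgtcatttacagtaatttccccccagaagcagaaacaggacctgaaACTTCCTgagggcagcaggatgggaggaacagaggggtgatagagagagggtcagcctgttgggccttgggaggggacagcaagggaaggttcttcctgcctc
C1qc: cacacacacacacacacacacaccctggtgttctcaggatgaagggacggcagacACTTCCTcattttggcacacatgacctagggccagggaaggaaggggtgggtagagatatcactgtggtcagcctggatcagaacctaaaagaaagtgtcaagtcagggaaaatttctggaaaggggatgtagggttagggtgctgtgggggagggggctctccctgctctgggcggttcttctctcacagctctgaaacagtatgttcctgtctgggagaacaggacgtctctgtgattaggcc
Each window held the string once. On either strand (ACTTCCT or AGGAAGT) it was present in 3072 of 32851 RefSeq promoter windows of this length (9.35%). Of the other windows, that of *C5ar1* held it at 2 places and those of *C3* and *C3ar1* at none. Since the string was picked after these windows were seen, the share over all promoters is no test of its presence in them. These are matches of letters, and no binding was measured.

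The C4 genes lie on the minus strand of chromosome 17 (GRCm38), *C4b* (ENSMUSG00000073418.4) at 34728380 to 34743882 and *C4a* (ENSMUSG00000015451.16) at 34809092 to 34823464. *C4b* encodes the C4 that acts in the cascade, and *C4a* encodes its relative known as sex-limited protein. The annotation of the counts listed *C4a* only as lncRNA (long non-coding RNA) and retained intron, whereas that of *C4b* included protein coding. The longest transcripts of *C4b* and *C4a*, of 5379 and 5371 bases, matched at 96.1% of 5367 aligned bases, with 207 mismatches and an identical run of 433 bases. Of the 5305 stretches of read length (75 bases) in the *C4b* transcript, 1248 (23.5%) also occurred in *C4a*, so a read from such a stretch could not be given to either gene alone. No stretch of read length of the other 6 genes occurred in the transcripts of another gene. The following 60 bases lie in exon 21 of 41 of both genes and show where counts can be assigned to one paralog. Among stretches of that length within an exon and coding in *C4b*, none held more mismatches (13, in capitals). The 60 bases are at chr17:34735430-34735489 (*C4b*) and chr17:34816086-34816145 (*C4a*), minus strand.
C4b: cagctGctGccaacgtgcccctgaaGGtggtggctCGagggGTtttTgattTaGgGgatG
C4a: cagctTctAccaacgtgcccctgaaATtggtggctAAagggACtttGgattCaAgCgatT
Mismatches were spread unevenly: of 54 bins of 100 bases, 11 held none and the fullest held 12. A read over the stretch shown can be told apart, and a read lying wholly within identical sequence cannot.

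**Figure D1:**
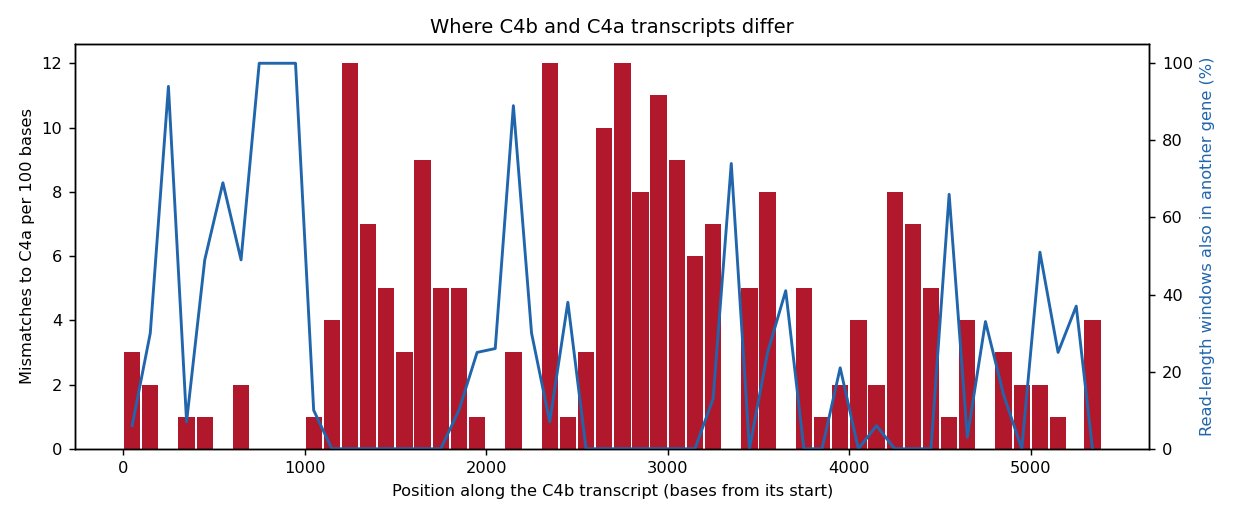
Mismatches between the aligned C4b and C4a transcripts in bins of 100 bases along the C4b transcript (red bars, left axis), and the percentage of read-length windows starting in each bin that also occur in another gene (blue line, right axis). Shared windows are concentrated near the start of the transcript, and bins hold up to 12 mismatches.

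Ranked by CPM per kilobase of transcript, which allows genes of different length to be compared, the order of levels was the same in most groups. *C1qa* stood first (median over the 23 libraries 28.6 CPM per kb), followed by *C1qb* (27.1), *C1qc* (23.8), *C4b* (10.1), *C3* (0.681), *C3ar1* (0.534), *C4a* (0.225) and *C5ar1* (0.123). The ranges of *C1qa* and *C1qb* overlapped in every group except WT-S, and within libraries *C1qa* was the higher in 2 or 3 of each group, so their order was not resolved in the other 5 groups. *C1qb* lay above *C1qc* in each of the 23 libraries, although their ranges over a group were separate only in WT-S and 3xTg-S. *C3* and *C3ar1* overlapped in every group except 3xTg-S, and so did *C4a* and *C5ar1*, of which *C5ar1* had the higher mean in 3xTg-D. *C4b* overlapped with neither *C1qc* above it nor *C3* below it in any group.

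**Figure D2:**
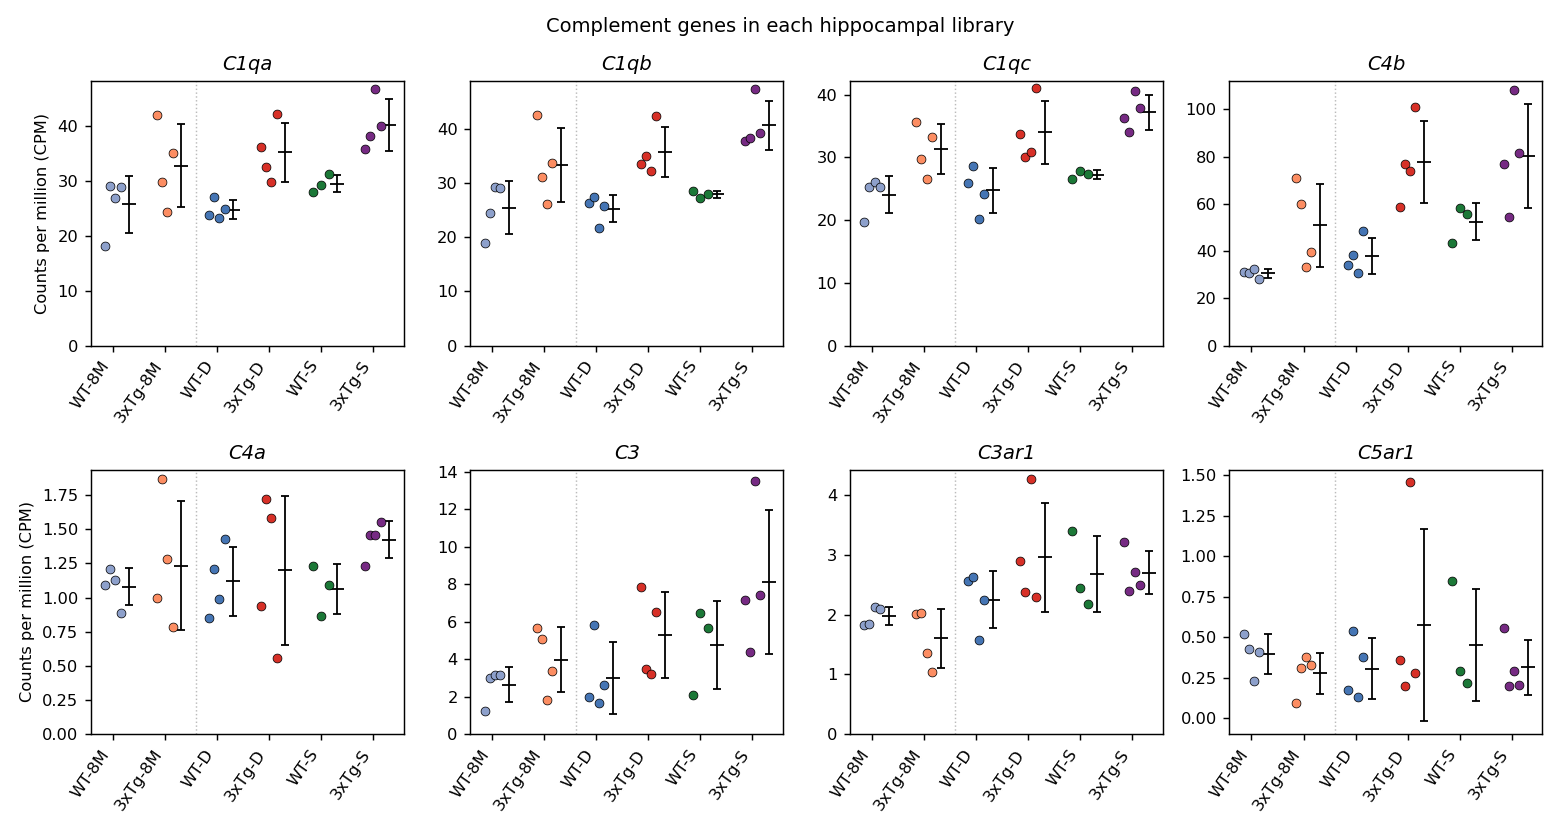
CPM of each of the 8 genes in each hippocampal library, by group, with the mean and SD beside the points; the dotted line separates the 8-month from the 10-month groups. Every 3xTg library of 10 months lay above every WT library of 10 months for C1qb and C1qc, and C5ar1 stayed at or below 1.46 CPM.

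The first question was whether the complement genes differed between 3xTg and WT hippocampus at 8 months, when the 3xTg animals already have memory deficits. Of the 8 genes, 7 passed the filter on low counts, and none of them was called at an adjusted p under 0.05 (edgeR's quasi-likelihood test), against 1.05% of 15483 tested genes called higher. At an unadjusted p under 0.05, 3 of the 7 (*C1qb*, *C1qc* and *C4b*) were higher, against 8.55% of tested genes. For 2 of the 7, *C1qc* and *C4b*, the groups did not overlap, against 4.91% of tested genes that were higher without overlap. The median log2 difference of the 7 was 0.40, and that of all tested genes was 0.01.

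*C4b*, which is cleaved by the C1 complex, had the largest difference of the 7 at 8 months. Its levels were 31.1, 30.7, 32.2 and 28 CPM in WT-8M and 71, 60.1, 33.1 and 39.7 CPM in 3xTg-8M. The WT libraries lay within a narrow band and the 3xTg libraries were widely spread, the lowest just above the WT range. The log2 difference was 0.75 ± 0.19 (SE), with an adjusted p of 0.0633. Without 3xTg-8M replicate 3, the lowest of its group, it was 0.91 with an adjusted p of 0.0107. The call also depended on the test, and the share of all genes called under each setting named next is not given here. With every library kept, *C4b* was called by the DESeq2 likelihood ratio test (adjusted p 0.00401) and by edgeR without the filter (7.02e-05). It was not called by edgeR with DESeq2 size factors (0.0659), or with a choroid plexus (0.0653) or microglial (0.782) marker score as covariate. The study, at a p-value under 0.01, named *C4b* among its 8-month genes. The *C1qc* levels were 19.7, 25.3, 26 and 25.3 CPM in WT-8M and 35.7, 29.8, 26.6 and 33.3 CPM in 3xTg-8M, a log2 difference of 0.40 ± 0.11 (adjusted p 0.0994). *C1qc* too was called by the DESeq2 likelihood ratio test (adjusted p 0.0449) and by edgeR without the filter (0.0169), and not with the other settings named for *C4b*. *C1qa* (0.38 ± 0.18) and *C1qb* (0.41 ± 0.16) differed by a like amount, with overlapping groups and adjusted p values of 0.305 and 0.223. WT-8M replicate 1, the deepest library (36686413 counts), was the lowest of all 23 for each C1q chain, at 18.1, 19 and 19.7 CPM for *C1qa*, *C1qb* and *C1qc*.

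*C3*, the central component on which the pathways converge, stood at 1.23, 2.99, 3.18 and 3.15 CPM in WT-8M and at 5.65, 5.08, 1.8 and 3.39 CPM in 3xTg-8M. The groups overlapped through 3xTg-8M replicate 3, and the log2 difference of 0.68 ± 0.36 had an adjusted p of 0.354. *C3ar1* was the only tested gene of the 7 with a lower mean in 3xTg-8M (log2 difference -0.26 ± 0.22, adjusted p 0.561). *C4a* differed by 0.16 ± 0.27 (adjusted p 0.783).

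After infusion of vehicle, at 10 months, *C4b*, *C1qa* and *C1qb* were higher in 3xTg than in WT hippocampus. These 3 of the 7 tested genes were called, against 0.638% of 15528 tested genes called higher, and the groups did not overlap for 4 (*C1qa*, *C1qb*, *C1qc* and *C4b*), against 4.04% of tested genes. All 7 had a higher mean in 3xTg-D, with a median log2 difference of 0.48.

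*C4b* rose most among the called genes. Its levels were 34.1, 38.4, 30.9 and 48.6 CPM in WT-D and 58.8, 76.7, 74.1 and 101 CPM in 3xTg-D. Each 3xTg-D library exceeded each WT-D library, and the difference was 2.03-fold (log2 1.02 ± 0.16, adjusted p 0.00559). Counting *C4a* and *C4b* as 1 gene gave 1.00 ± 0.16 (adjusted p 0.00586). *C4a* on its own stood at 0.853, 1.21, 0.987 and 1.43 CPM in WT-D and at 0.938, 1.72, 1.58 and 0.558 CPM in 3xTg-D, with fully overlapping groups (log2 difference 0.10 ± 0.32, adjusted p 0.944). Counts assigned to *C4a* made up 2.4% ± 0.864 (SD, n = 23) of the C4 total, from 0.552% to 3.79%, so the sum followed *C4b*.

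Among the C1q chains, *C1qa* was at 23.7, 27.1, 23.2 and 24.9 CPM in WT-D and at 36.2, 32.4, 29.8 and 42.1 CPM in 3xTg-D (log2 difference 0.49 ± 0.11, adjusted p 0.0442). *C1qb* was at 26.3, 27.4, 21.8 and 25.8 CPM in WT-D and at 33.5, 35.1, 32.2 and 42.5 CPM in 3xTg-D (0.48 ± 0.10, adjusted p 0.0404). *C1qc* was at 25.9, 28.6, 20.2 and 24.2 CPM in WT-D and at 33.8, 30.1, 30.9 and 41.1 CPM in 3xTg-D (0.45 ± 0.12, adjusted p 0.113). In all 3 the 3xTg-D libraries lay above the WT-D libraries, with replicate 4 the highest. The C1q calls stood close to the threshold: leaving out any single library other than 3xTg-D replicate 3 ended those of *C1qa* and *C1qb*, with log2 differences from 0.38 to 0.54 and adjusted p values from 0.0512 to 0.111, whereas *C4b* stayed called. When libraries with consecutive animal numbers were blocked in runs of 4, *C1qa* was no longer called (0.48, adjusted p 0.0591), and *C1qb* (0.0383) and *C4b* (0.000282) were.

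After infusion of the inhibitor, the 3 C1q chains were again higher in 3xTg than in WT. They were the 3 called of 7 tested genes, against 0.613% of 15664 tested genes called higher, and together with *C4a* they made the 4 genes whose groups did not overlap, against 5.49% of tested genes. The median log2 difference of the 7 was 0.44. *C1qb* rose from 28.5, 27.3 and 28.1 CPM in WT-S to 37.8, 38.4, 47.5 and 39.4 CPM in 3xTg-S (log2 difference 0.54 ± 0.09, adjusted p 0.012). *C1qc* was at 26.6, 27.9 and 27.3 CPM in WT-S and at 36.2, 34, 40.6 and 37.9 CPM in 3xTg-S (0.44 ± 0.08, adjusted p 0.0163). *C1qa* was at 28, 29.2 and 31.2 CPM in WT-S and at 35.8, 38.1, 46.7 and 40 CPM in 3xTg-S (0.44 ± 0.10, adjusted p 0.0468). For each chain the WT-S libraries were tightly grouped and 3xTg-S replicate 3 was the highest. With only 3 WT-S libraries, leaving out WT-S replicate 2 (the library with the most choroid plexus RNA) or WT-S replicate 3 left none of the 8 genes called, with adjusted p values for *C1qb* of 0.0678 and 0.0557 at log2 differences of 0.53, and leaving out 3xTg-S replicate 4 left *C1qb* alone. *C1qa* stayed called only without 3xTg-S replicate 1. Blocking by these runs of animal numbers ended all 3 calls, at log2 differences of 0.57, 0.46 and 0.50 and adjusted p values of 0.061, 0.105 and 0.0909 for *C1qb*, *C1qc* and *C1qa*.

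*C4b* was at 43.6, 58.1 and 55.6 CPM in WT-S and at 76.8, 54.3, 108 and 81.6 CPM in 3xTg-S. The groups overlapped through 3xTg-S replicate 2, and the log2 difference of 0.61 ± 0.19 had an adjusted p of 0.195. Replicate 2 was also the 3xTg-S library with the most choroid plexus RNA; without it the *C4b* difference was 0.76 with an adjusted p of 0.03. *C4a* was at 1.23, 0.866 and 1.09 CPM in WT-S and at 1.23, 1.46, 1.46 and 1.55 CPM in 3xTg-S, which did not overlap only in digits beyond those printed and rested on 12 to 23 counts a library (0.42 ± 0.25, adjusted p 0.628).

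**Figure D3:**
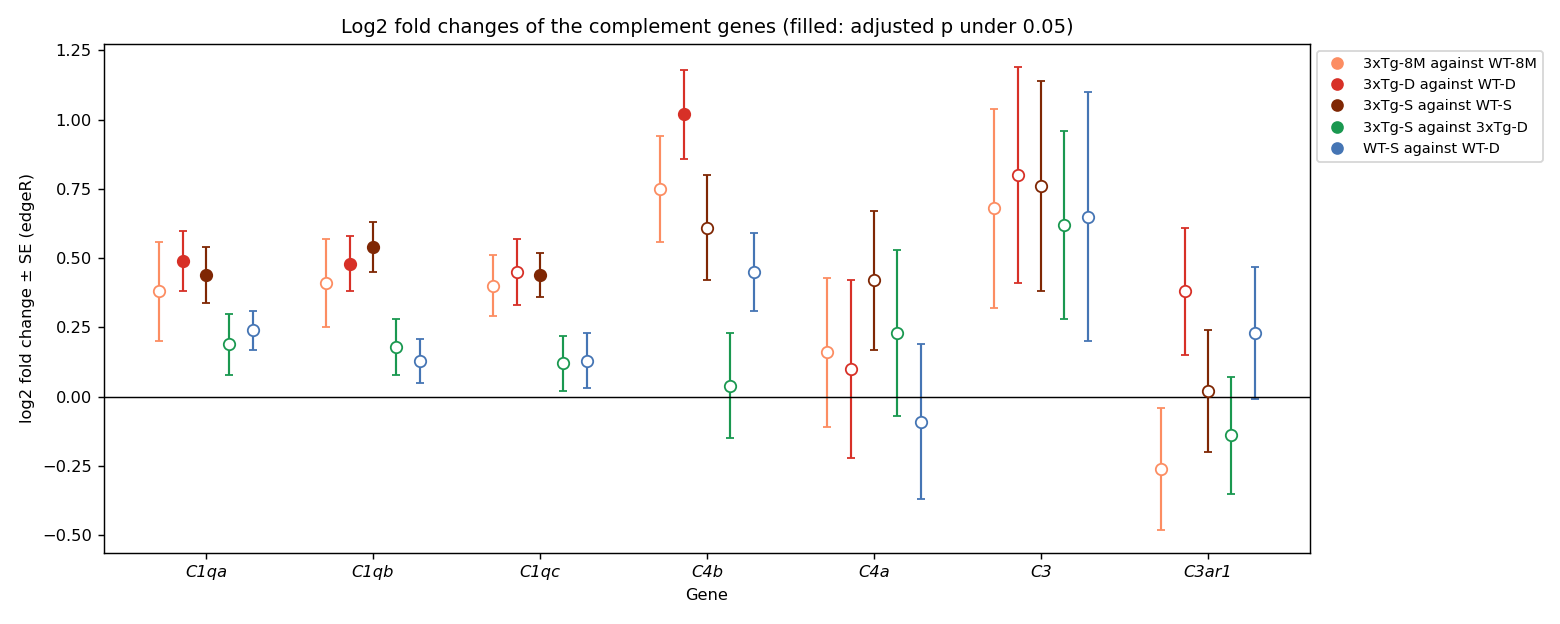
Log2 fold changes with SE of the 7 tested complement genes in 5 comparisons, filled where the adjusted p was under 0.05. The strain comparisons lay above 0 for the C1q chains, C4b and C3, and the open points of the inhibitor comparisons lay nearer to 0 for the C1q chains.

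With the 15 libraries of 10 months in 1 additive model of strain and infusion, the strain difference of the 3 C1q chains and *C4b* was seen with 8 against 7 libraries. These 4 of 7 tested genes were called, against 3.17% of 16262 tested genes called higher, and the median log2 difference of the 7 was 0.47 (all genes, 0.00). *C1qb* averaged 38.3 ± 5 CPM (SD, n = 8) in 3xTg and 26.5 ± 2.25 CPM (n = 7) in WT, a log2 difference of 0.51 ± 0.07 (adjusted p 0.000145). *C1qa* averaged 37.6 ± 5.38 against 26.8 ± 2.96 CPM (0.47 ± 0.07, adjusted p 0.000539). *C1qc* averaged 35.6 ± 4.12 against 25.8 ± 2.86 CPM (0.45 ± 0.08, adjusted p 0.00116). The SEs of the 3 chains overlapped, and the strains did not overlap for *C1qb* and *C1qc*, against 0.929% of tested genes that were higher without overlap. *C4b* averaged 78.8 ± 18.3 against 44.2 ± 10.4 CPM (0.83 ± 0.14, adjusted p 0.00113). All 4 stayed called when any single library was left out and when blocked by the runs of animal numbers. This model shares its libraries with the vehicle and inhibitor comparisons above and is not independent of them.

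*C3* had a larger log2 difference in that model than any C1q chain, but from few counts and with wide spread. It stood at 1.99, 5.84, 1.64 and 2.61 CPM in WT-D, at 7.86, 3.5, 3.23 and 6.55 in 3xTg-D, at 2.08, 6.49 and 5.66 in WT-S and at 7.16, 4.38, 13.5 and 7.43 in 3xTg-S. Strains overlapped under both infusions. The log2 difference of 0.78 ± 0.30 had an adjusted p of 0.145. Without WT-D replicate 2, the highest WT-D library, it was 1.01 with an adjusted p of 0.0486. Over all 23 libraries *C3* ran from 1.23 to 13.5 CPM, an 11-fold range, whereas each C1q chain spanned at most 2.58-fold.

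The receptors showed no called difference. *C3ar1* was at 2.56, 2.62, 1.58 and 2.24 CPM in WT-D and at 2.89, 2.38, 4.26 and 2.3 CPM in 3xTg-D. In the inhibitor groups it was at 3.39, 2.45 and 2.18 CPM in WT-S and at 3.21, 2.39, 2.71 and 2.5 CPM in 3xTg-S. The groups overlapped, and the strain difference over both infusions was 0.22 ± 0.16 (adjusted p 0.527). *C5ar1* had 2 to 24 counts a library and 3 or fewer in 8 of 23 libraries, so it did not pass the filter in any main comparison. In edgeR without the filter it was not called in any comparison. Its strain differences there were -0.77 at 8 months, 0.96 with vehicle and -0.48 with the inhibitor (adjusted p 0.565, 0.582 and 0.797). For 3xTg-S against 3xTg-D the value was -0.90 (adjusted p 0.643). The highest *C5ar1* value, 1.46 CPM, came from 3xTg-D replicate 3, which was also the highest for *C3ar1* at 4.26 CPM.

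The next question was whether the inhibitor changed the complement genes. In 3xTg mice (3xTg-S against 3xTg-D) none of the 7 tested genes was called, and neither was any of 15530 genes (0%). None of the 7 passed an unadjusted p under 0.05, which 11.2% of tested genes did. Every group pair overlapped, and 6 of the 7 means were higher under the inhibitor, with a median log2 difference of 0.18. *C1qa* differed by 0.19 ± 0.11 (adjusted p 0.542), *C1qb* by 0.18 ± 0.10 (0.52) and *C1qc* by 0.12 ± 0.10 (0.653). *C4b* differed by 0.04 ± 0.19 (adjusted p 0.955), and *C3* by 0.62 ± 0.34 (0.508). For the C1q chains and *C4b* these values were smaller than the strain differences of the same genes, a contrast that was not tested as such. No member was called under the inhibitor in either direction by edgeR or by DESeq2.

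In WT mice (WT-S against WT-D) no gene of 15724 was called (0%). At an unadjusted p under 0.05, *C1qa* and *C4b* were higher with the inhibitor, against 2.05% of tested genes. *C1qa* did not overlap between WT-D (23.2 to 27.1 CPM) and WT-S (28 to 31.2 CPM), as 3.19% of tested genes were higher without overlap, with a log2 difference of 0.24 ± 0.07 and an adjusted p of 0.981. *C4b* differed by 0.45 ± 0.14, with the same adjusted p. The interaction of strain and infusion, which tests whether the inhibitor's effect differed between strains, called none of 16262 genes (0%), and 2.32% passed an unadjusted p under 0.05 but none of the 7. Its largest absolute value among the 7 was that of *C4b*, -0.41 ± 0.28 (unadjusted p 0.155 in edgeR's test, adjusted p 1), and those of the C1q chains were within 0.06 of 0 with SEs of 0.15 to 0.16. Taking both strains together, the inhibitor difference called no gene (0%). *C1qa* (0.21 ± 0.07, adjusted p 0.257), *C1qb* (0.16 ± 0.07, 0.349) and *C3* (0.63 ± 0.30, 0.361) were higher at an unadjusted p under 0.05, as were 6.79% of tested genes.

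The study also set infused 3xTg-S against WT-D. There *C1qa* (log2 0.68), *C1qb* (0.67), *C1qc* (0.57 ± 0.10) and *C4b* (1.06 ± 0.18) were called, with adjusted p values of 0.00116, 0.00192, 0.00918 and 0.00757, against 1.19% of 15567 tested genes called higher. In the same genes the vehicle comparison, which has the same WT-D libraries, gave 0.49, 0.48, 0.45 and 1.02. The difference from WT-D was thus no smaller after the inhibitor in the means of these 4 genes, and none of them was called between 3xTg-S and 3xTg-D, as given above.

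The 3 C1q chains kept a near constant proportion to each other. Per kilobase, *C1qa* was 1.04 ± 0.0731 (SD, n = 23) times *C1qb*, with a range of 0.942 to 1.24, and *C1qc* was 0.86 ± 0.056 times *C1qb*, with a range of 0.759 to 0.942. Taken as deviations of log2 CPM from the group mean, so that strain and infusion do not enter, the chains correlated at 0.91 (*C1qa* and *C1qb*), 0.89 (*C1qb* and *C1qc*) and 0.87 (*C1qa* and *C1qc*) over 23 libraries. *C3* correlated with the chains at 0.64 to 0.75 and *C4b* at 0.50 to 0.57, and *C4a* with *C4b* at -0.02. These are descriptions over libraries that share depth and tissue composition within each library. The genes most like the C1q mean in the same measure, among 11647 with a mean of at least 5 CPM, were *Ctss* (0.90) and *Ctsd* (0.88), which encode lysosomal cathepsins, followed by *Rpn2* (0.87), *Cnn3* (0.86) and *Mgat4b* (0.85). For *C4b* they were *Gfap* (0.83), which encodes the astrocyte filament protein, *Prep* (0.82), *Gbp3* (0.81), an interferon-induced GTPase, *Lgals3bp* (0.81) and *Grn* (0.80), which encodes progranulin. For *C3* they were *Klhl25* (0.85), *Pld4* (0.80), *Mxd4* (0.79), *Pard3* (0.79) and *Abhd4* (0.78).

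Microglial markers also tended to be higher in 3xTg hippocampus. Of 10 markers, 9 had a higher mean in 3xTg at 8 months and 9 with vehicle. None was called in either, against 1.05% and 0.638% of tested genes called higher. With the inhibitor all 10 had a higher mean and 2 were called, against 0.613% of tested genes. The 10 markers summed to 366 to 441 CPM in WT-D, 377 to 567 in 3xTg-D, 382 to 409 in WT-S, 468 to 556 in 3xTg-S, 379 to 421 in WT-8M and 437 to 506 in 3xTg-8M. Over both infusions all 10 had a higher mean in 3xTg and 5 were called, against 3.17% of tested genes called higher, among them *Tmem119*, *Csf1r*, *Siglech* and *Selplg* with log2 differences of 0.36, 0.29, 0.44 and 0.50, and the median of the 10 was 0.31. The C1q chains together rose from 79.1 ± 7.49 CPM in WT (n = 7) to 112 ± 14.1 CPM in 3xTg (n = 8), and the marker sum was 401 ± 24.1 against 492 ± 58.5 CPM. The ratio of the C1q sum to the marker sum was 0.197 ± 0.0161 in WT, with a range of 0.179 to 0.227, and 0.227 ± 0.0147 in 3xTg, with a range of 0.204 to 0.246. With vehicle the strains did not overlap in this ratio (0.179 to 0.192 in WT-D and 0.204 to 0.246 in 3xTg-D), and with the inhibitor they did (0.203 to 0.227 in WT-S and 0.221 to 0.243 in 3xTg-S), as they did at 8 months (0.15 to 0.197 in WT-8M and 0.175 to 0.237 in 3xTg-8M). With the microglial score of each library as a covariate, the strain difference of *C1qb* was 0.30 and stayed called, whereas that of *C1qa* was 0.26 (adjusted p 0.0923), that of *C1qc* 0.22 (0.129) and that of *C4b* 0.71 (0.0551). The part of microglial number in the C1q differences was not tested.

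**Figure D4:**
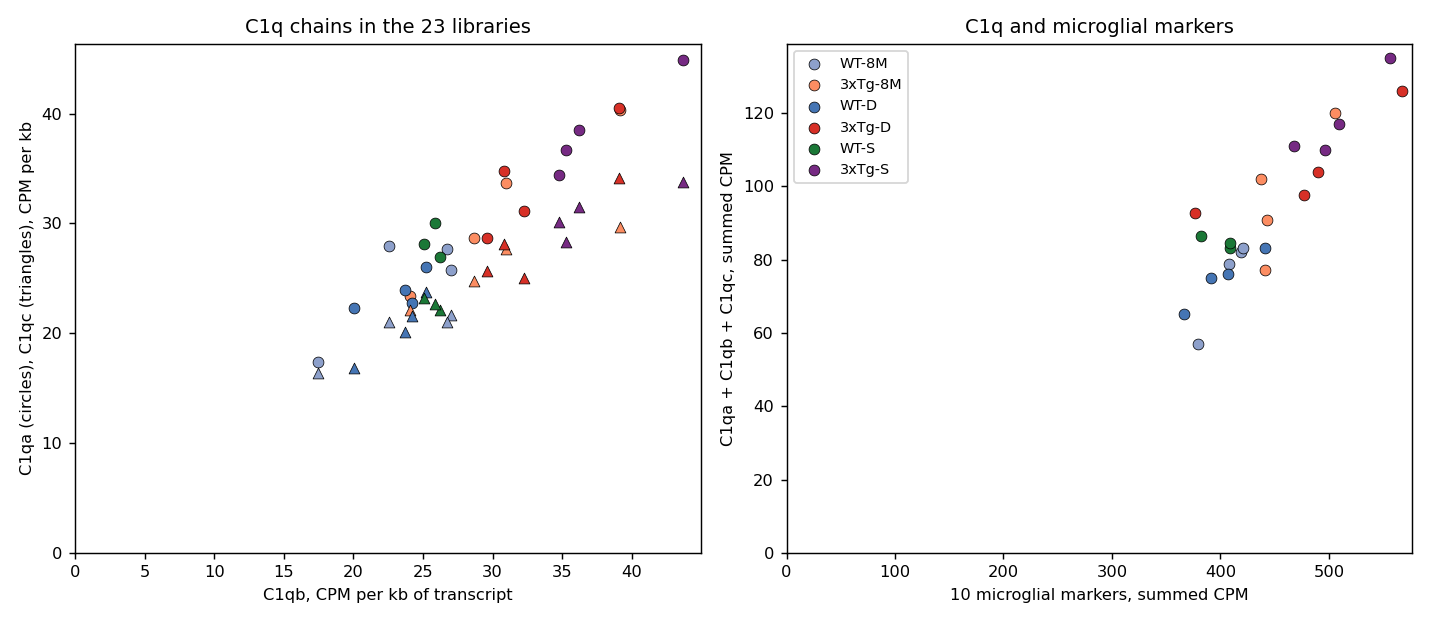
C1qa (circles) and C1qc (triangles) against C1qb in CPM per kb of transcript (left), and the summed CPM of the 3 C1q chains against that of 10 microglial markers (right), 1 point a library. The chains keep their proportion over all 23 libraries, and the C1q sum and the marker sum are both highest in 3xTg libraries.

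Since *C4b* is also an astrocyte gene, astrocyte markers were read beside it. Of 8 general astrocyte markers none was called between strains at 10 months (median log2 difference 0.07, summed level 4940 to 5980 CPM at 10 months). Of 8 markers of reactive astrocytes, 7 were tested; *Vim* (0.43), *Osmr* (0.50) and *Lcn2* (3.38) were higher and *Serpina3n* (-1.46) was lower. *Gfap*, the gene most like *C4b* within groups, differed by 0.28 ± 0.09 between strains (adjusted p 0.0803). The reactive list summed to 478 to 850 CPM in WT-D, 583 to 669 in 3xTg-D, 517 to 815 in WT-S and 587 to 848 in 3xTg-S, with *Lcn2* and *Timp1* at 0 in some library of both WT groups. All 10 interferon-response genes had a higher mean in 3xTg at 10 months, and 4 were called (*Ifit1*, *Ifit3*, *Oasl2* and *Usp18*), with a median log2 difference of 1.08. Of 8 genes of activated microglia 2 were called, *Cst7* (2.53) and *Ccl6* (0.84). Over all 16262 tested genes of this model, 3.17% were called higher and 6.53% in either direction. The part of these lists in the *C4b* difference was not tested.

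A further 48 genes of the cascade, its regulators and its receptors were examined by role. In the model over both infusions 28 passed the filter and only *Cd59a* was called, which gives 1 of 28 higher and none lower, with a median log2 strain difference of 0.11. That share is near the 3.17% of all tested genes called higher. At 8 months 23 were tested, 1 called higher (*Cd59a*) and 1 lower (*Masp2*), against 2.58% of tested genes called in either direction. With vehicle 1 of 23 (*Cd59a*) was called higher between strains, against 0.638% of tested genes, and with the inhibitor 1 of 24 (*Cd59a*), against 0.613%, and none in any comparison of inhibitor with vehicle. The genes named here, apart from *Cd59a* and *Masp2*, were picked after their values were seen. Among initiators, 8 of 14 were tested and none was called: the C1 proteases *C1ra* and *C1s1* differed by -0.08 and 0.22, *C2* by 0.28 and the lectin *Fcna* by 0.98 (adjusted p 0.226). In the alternative pathway only *Cfp*, which encodes the stabiliser properdin, was tested (0.35, adjusted p 0.0868). Of the 7 terminal components only *C8g* was tested, and *C9* had no count in any library. Among 7 further receptors 4 were tested and none was called, with *Itgam* and *Itgb2*, the chains of complement receptor CR3, at 0.19 and 0.11.

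Regulators formed the best measured class, with 14 of 17 tested. *Cd59a* encodes a membrane protein that blocks assembly of the terminal pore. It was at 5.75, 5.27, 4.92 and 4.28 CPM in WT-8M and at 8.93, 8.9, 8.11 and 11.1 in 3xTg-8M (log2 difference 0.87 ± 0.14, adjusted p 0.00596). At 10 months it was at 3.24, 2.48, 0.987 and 1.87 CPM in WT-D and at 10.2, 8.78, 8.22 and 7.32 in 3xTg-D (1.98 ± 0.25, adjusted p 0.00137). With the inhibitor it was at 4, 3.9 and 2.61 CPM in WT-S and at 11, 14.1, 9.94 and 10.1 in 3xTg-S (1.69 ± 0.19, adjusted p 0.000399). The strains were fully separated in all 3 settings, and the difference over both infusions, 1.83 ± 0.17 (adjusted p 5.4e-07), was larger than that of any of the 7 complement genes tested in that model. The fluid-phase regulator *Clu*, which encodes clusterin, differed by 0.02 and was not called, and *Serping1*, which encodes the C1 inhibitor, differed by 0.36 (adjusted p 0.33). *Masp2*, a protease of the lectin pathway, was the only gene of the list called lower in 3xTg, at 8 months alone: its mean was 2.07 ± 0.484 CPM in WT-8M and 0.523 ± 0.205 CPM in 3xTg-8M (-1.89 ± 0.29, adjusted p 0.0043). Over both infusions at 10 months the value for *Masp2* was 0.41 (adjusted p 0.436), and the difference between the ages was not tested.

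**Figure D5:**
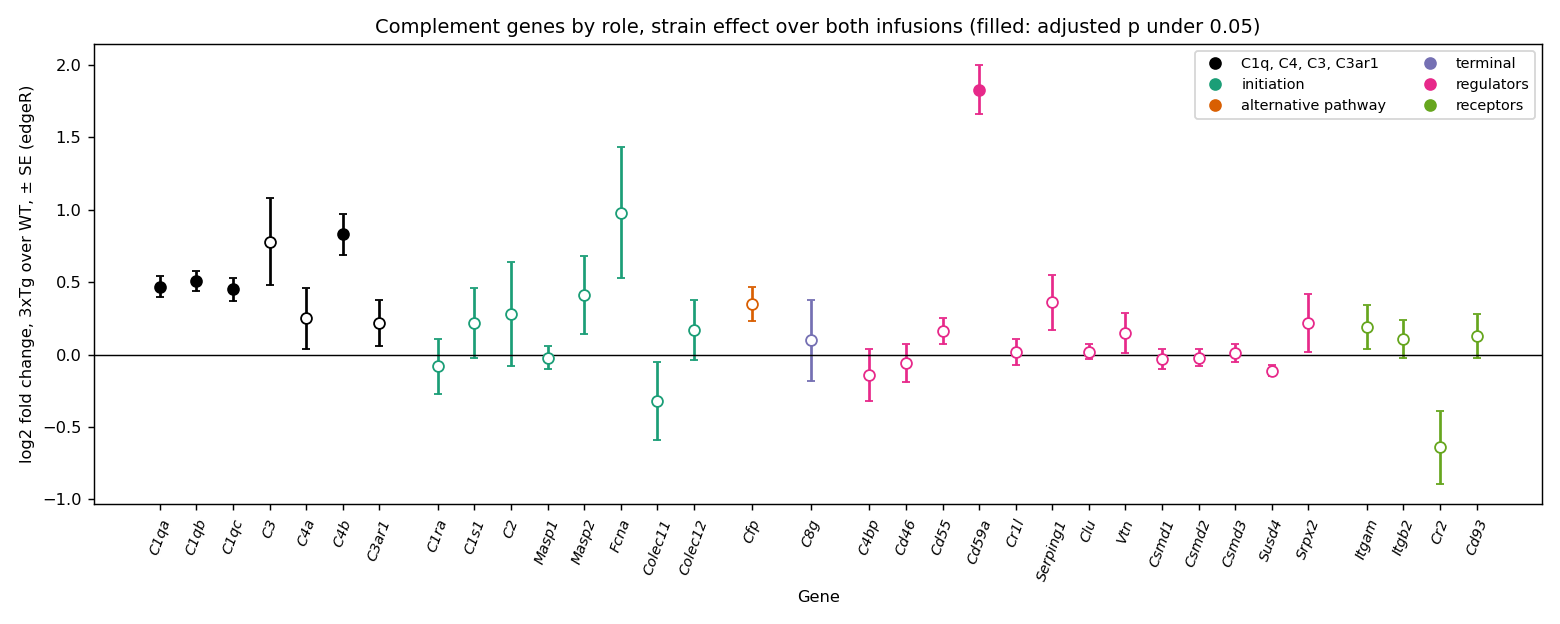
Log2 strain differences at 10 months, over both infusions, of 7 of the 8 complement genes (black) and of tested genes of the wider list, coloured by role, with SE and filled where the adjusted p was under 0.05. C1qa, C1qb, C1qc and C4b are filled among the black points, and only Cd59a, at 1.83, among the others.

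Genes around the members were looked at to see whether a whole chromosomal neighbourhood moved. Within 250 kb of *C4b* none of the 25 other tested genes was called over both infusions, and within 250 kb of each C1q gene the only called genes among 5 tested were the other C1q chains. The median log2 difference of the 25 neighbours of *C4b* was -0.01. Around *C3*, itself not called, 2 of 11 tested neighbours were called higher and 1 lower over both infusions, with a median of 0.05. In that model 6.53% of all tested genes were called in either direction. Around *C3* none of the 11 was called with vehicle, and 1 was called higher with the inhibitor and 1 at 8 months. Of all tested genes, 0.613% were called higher with the inhibitor and 1.05% at 8 months. Over both infusions 1 of 7 neighbours of *C3ar1* was called higher, and none of 15 around *C5ar1* was called. At 8 months, where *C4b* itself was not called, 2 of its 24 tested neighbours were called higher, against 1.05% of tested genes, and the median of the 24 was 0.12. These were *Pbx2* (log2 difference 0.29 ± 0.06, adjusted p 0.0166), which encodes a homeodomain transcription factor, and *Hspa1b* (0.80 ± 0.14, adjusted p 0.00855), an inducible heat-shock gene with a near-identical copy, *Hspa1a*, so that reads may be split between the copies. No neighbour of *C4b* was called with vehicle (23 tested) or with the inhibitor (25 tested).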

How the data were processed

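Whole-hippocampus RNA from female mice was sequenced in 23 libraries (mRNA kit with unique molecular identifiers, single-end reads of 75 bases). The authors deposited raw gene counts, made with Trimmomatic 0.35 and STAR 2.5.1b on GRCm38 with Gencode annotation. Whether molecular identifiers were collapsed and which strand setting was used is not given in the sources used here, so antisense and overlapping reads may be included. The 4 summary rows, 24.7 to 30.9% of reads a library, were left out.

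The 8 genes were matched by symbol; the members and all lists were chosen with earlier results of these data known. Counts were filtered with filterByExpr, normalised by TMM and tested with edgeR 4.0.16 (limma 3.58.1, R 4.3.3) quasi-likelihood tests on the libraries of each comparison. P values were Benjamini-Hochberg adjusted over all tested genes and called under 0.05, and SE is the log2 fold change divided by the square root of F. DESeq2 1.42.0 was an alternative. The tests were tested on simulated data. The additive and interaction models used the 15 libraries of 10 months. Named beyond the 8 by rule were called genes of the wider complement list, called neighbours within 250 kb of a called member, and the 5 genes most like *C4b*, *C3* and the C1q mean (log2 CPM with prior count 2, mean at least 5 CPM). Named outside this rule were *Pbx2* and *Hspa1b*, near *C4b* at 8 months, where it was not called. So were some marker genes and some uncalled genes of the wider list. Alternatives were other size factors, no filter, an unadjusted p under 0.01, summed C4, microglial or choroid plexus scores as covariates, a block, and leaving out each library. Each title carries a number of its own, read here as that of the animal, and the study counts mice, so libraries of a group were taken as separate mice. The block was for runs of consecutive numbers at 10 months; the labels do not say that a run marks a litter, batch or day. Some genes of the lists are not reported here by name.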

Additional observations from a re-analysis of the deposited data

Results flagged for a closer look

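Over the 8 genes in the 5 groups of 4 libraries, the highest or lowest value of 4 of 40 sets stood further from the others than Dixon's 95% critical value for 4 samples allows; chance gives about 1 in 20 groups, and WT-S, with 3 libraries, was not tested. *C1qb* in 3xTg-S replicate 3 was 47.5 CPM, against 37.8 to 39.4 in the others (gap over range 0.831). In WT-8M replicate 1, the deepest library, *C1qc* was low at 19.7 CPM, against 25.3 to 26 (0.881), and *C3* was low at 1.23 CPM, against 2.99 to 3.18 (0.904). *C5ar1* in 3xTg-D replicate 3 was high at 1.46 CPM, 24 counts, against 0.198 to 0.361 CPM (0.871). Without WT-8M replicate 1 the 8-month differences were 0.30 for *C1qc* and 0.39 for *C3* on the log2 scale, neither called; without 3xTg-S replicate 3 the *C1qb* difference with the inhibitor was 0.45 and stayed called.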

How the results depend on the processing

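Over 1097 values of single genes under the alternatives, 980 kept direction and side of the threshold, 47 lost and 16 gained a call, and 54 changed sign; none of the 54 was called before or after. *C4b* in 3xTg-D against WT-D stayed called under every alternative run. The causes of the changes below were not tested.

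At 8 months the number of members called was 0 in the main test and 2 at an unadjusted p under 0.01 (*C1qc* and *C4b*). It was 3 without the filter (*C1qb*, *C1qc* and *C4b*), 2 with DESeq2 (*C1qc* and *C4b*), and 0 to 1 when each library was left out. For 3xTg-D against WT-D the main 3 became 1 with the microglial score (*C1qa* 0.30 and *C1qb* 0.32, from 0.49 and 0.48) and 1 with the choroid plexus score (0.54 and 0.55), and 1 to 3 leaving out each library. For 3xTg-S against WT-S the main 3 became 5 without the filter, 0 with the microglial score (*C1qa* 0.23, *C1qb* 0.22 and *C1qc* 0.23, from 0.44, 0.54 and 0.44), 0 with a block for runs of animal numbers (0.50, 0.57 and 0.46), 1 in a fit of all 15 libraries (0.44, 0.54 and 0.44), and 0 to 3 leaving out each library. For WT-S against WT-D 0 became 2 at an unadjusted p under 0.01. With the microglial score, 4 became 0 for 3xTg-S against WT-D and 1 for strain over both infusions. The counts stayed 0 under every alternative for 3xTg-S against 3xTg-D, for the interaction and for the inhibitor over both strains. The share of all genes called under each alternative is not given here. Whether the members gained or lost calls more than other genes did was therefore not tested. Without the filter *C4b* kept its log2 difference of 0.75 at 8 months, and its adjusted p in edgeR went from 0.0633 to 7.02e-05. In 3xTg-S against WT-S *C4b* kept 0.61, and its adjusted p went from 0.195 to 3.82e-09.

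With the microglial score, signs changed at 8 months for *C1qa* (-0.14), *C1qb* (-0.08) and *C3* (-0.10), and elsewhere for *C3ar1* in 3xTg-S against WT-S (-0.50), 3xTg-S against 3xTg-D (0.04) and 3xTg-S against WT-D (-0.16), *C3* in 3xTg-S against WT-D (-0.21), *C4b* in 3xTg-S against 3xTg-D (-0.09) and *C1qb* in the interaction (-0.04). With the choroid plexus score they changed for *C3ar1* in 3xTg-D against WT-D (-0.02) and for the inhibitor over both strains (-0.00), *C4b* in 3xTg-S against 3xTg-D (-0.08), *C4a* in WT-S against WT-D (0.01) and *C1qb* in the interaction (-0.02). With the block they changed for *C3ar1* in 3xTg-S against WT-S (-0.06) and *C3* in the interaction (0.01).

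Leaving out each library, *C4a* ran from -0.07 to 0.30 at 8 months, from -0.11 to 0.33 with vehicle, from -0.21 to 0.05 in WT-S against WT-D and from -0.04 to 0.19 for the inhibitor over both strains. *C3ar1* ran from -0.12 to 0.23 in 3xTg-S against WT-S, from -0.23 to 0.09 in 3xTg-S against 3xTg-D and from -0.08 to 0.16 for the inhibitor over both strains, and *C4b* from -0.14 to 0.20 in 3xTg-S against 3xTg-D. In the interaction *C1qa* ran from -0.14 to 0.06, *C1qb* from -0.03 to 0.16, *C1qc* from -0.07 to 0.11 and *C3* from -0.55 to 0.26.

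The labels give groups no shared replicate numbers, and the block for runs of animal numbers was the only pairing tried. Depth limited *C5ar1* (2 to 24 counts a library), *C4a* (8 to 40) and *C3ar1* (16 to 70) most.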
